A study of Mus musculus with 9 samples.

Results

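The genes described here are 38 genes of protein folding and quality control in the endoplasmic reticulum (ER), taken by symbol from the 25781 genes of the deposited table for mouse liver. They comprise 11 chaperones and co-chaperones, 10 disulfide isomerases and other folding enzymes, 5 genes of the translocon and of nascent chain processing, 9 genes of ER-associated degradation (ERAD), and 3 stress sensors and transcription factors. All 38 were found, and all 38 passed the filter on low values, as did 20145 genes of the whole table.

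The ER is where secreted and membrane proteins enter the secretory pathway, and hepatocytes carry an extensive ER because they make most plasma proteins. Chains enter through the Sec61 channel, are bound by Hsp70-type and lectin chaperones, acquire disulfide bonds from protein disulfide isomerases, and, where folding fails, are pulled back to the cytosol by the ERAD machinery for destruction by the proteasome. When unfolded chains accumulate, the sensors ATF6, IRE1 (gene Ern1) and PERK raise transcription of this set, ATF6 and the spliced form of XBP1 doing so through promoter elements named ERSE, ERSE-II and UPRE.

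Liver RNA of Swiss mice aged 10 to 12 weeks was sequenced in 3 groups of 3 libraries. The first group is labelled control, with no agent named, the second group received β-CYP at 40 mg/kg, and the third received the same β-CYP dose plus sodium selenite (Na2SeO3) at 50 µg/kg, so β-CYP is shared by both treated groups. The series calls the 2 treated groups liver injury and repair and asks what selenium does against liver injury; β-CYP is abbreviated throughout, and route, duration, sex and any pooling are not in the labels, and no group with selenite alone was used here. Values are scaled counts, that is, reads of a gene divided by a library factor that the authors applied, and changes are differences of log2(scaled count + 1) between group means. The labels do not say that the libraries came from separate mice, so p-values may measure only the spread between libraries.

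Libraries held 28630269 to 36029560 reads. Within groups, the median coefficient of variation (SD over mean) of the 38 genes was 2.04% in control, 2.96% after β-CYP and 3.53% after selenite plus β-CYP. It exceeded 10% for 3, 5 and 5 genes. Those genes were Ssr1, Sel1l and Derl3 in control, Hspa5, Erp29, Syvn1, Sel1l and Derl3 after β-CYP, and Hspa5, Erp29, Fkbp11, Syvn1 and Sel1l after selenite plus β-CYP. Hepatocyte markers summed to 3857396 to 4025614 scaled counts in control, 4762191 to 4886347 after β-CYP and 4256866 to 4336274 after selenite plus β-CYP. Alb, Fgb and Fga carried most of that sum. Of the 13 hepatocyte markers, 8 were higher and 2 lower after β-CYP, 2 higher and 10 lower with selenite than with β-CYP alone, and 4 higher and 8 lower with selenite than in control (median log2 change -0.13). Over all genes tested, 7.72% were higher and 8.58% lower in the first of these comparisons. The shares were 11.6% and 12.3% in the second, and 14.4% and 14.5% in the third.

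The 3 selenite libraries also stood apart in transcripts that liver makes little of. The 26 pancreatic acinar markers (digestive enzymes and secretory granule proteins) summed to 983 to 1157 scaled counts in control and 1168 to 1240 after β-CYP, nearly all of it from the elastase gene Cela1 (1063 ± 81.8, 1182 ± 44.1 and 2818 ± 68.4 in the 3 groups in the order control, β-CYP, selenite plus β-CYP, mean ± SD, n = 3). In the selenite libraries the sum was 45692 to 47395. Of the 25 markers tested, 24 were higher in the selenite group than in either other group, and none passed between β-CYP and control. Over all genes tested, 11.6% were higher with selenite than with β-CYP alone and 14.4% higher than in control. Markers without a read in any control or β-CYP library met the filter on low values through the selenite libraries alone. Their place among the genes tested thus rested on the group in which they were high. Between β-CYP and control they could not pass. In control, 20 of the 26 had no read in any library, among them the lipase Pnlip, and after β-CYP 17 had none. Pnlip averaged 5258 ± 191 in the selenite group, and the chymotrypsinogen gene Ctrb1 6472 ± 279. The 5 islet markers summed to 0 in all control and β-CYP libraries and to 2.87 to 13.8 in the selenite libraries.

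Acinar cells are rich in ER, so 3 genes known from pancreas were read as well, the ER genes Pdia2 and Erp27 and the transcription factor gene Bhlha15. Pdia2, a pancreatic disulfide isomerase, had 0 reads in all 6 control and β-CYP libraries and 88, 130 and 100 reads in the selenite libraries. It met the filter on low values through the selenite libraries alone, so no p-value is given. Bhlha15, the Mist1 transcription factor of acinar and plasma cells, had scaled counts of 6.07, 5.03 and 9.14 in control, 7.28, 5.11 and 8.32 after β-CYP and 220.0, 219 and 222 after selenite plus β-CYP (log2 change 4.83, SE 0.29, adjusted p = 1.6e-06, selenite plus β-CYP against β-CYP). Erp27, a non-catalytic relative of the isomerases, did not pass in any comparison, at 113 ± 3.52, 139 ± 27.6 and 112 ± 34.5 in the order control, β-CYP, selenite plus β-CYP. Pancreatic transcripts moved with every difference between the selenite group and the others below, and their part in them was not tested. Neither the acinar markers nor these 3 genes passed between β-CYP and control. Pdia2 and the acinar markers without reads in both of those groups could not have passed there.

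Other cell types were read the same way. The 17 plasma and B cell markers, whose leading gene Sdc1 is also expressed by hepatocytes, summed to 7653 to 7769 scaled counts in control, 6798 to 7351 after β-CYP and 6351 to 6564 after selenite plus β-CYP. Sdc1 fell after β-CYP (log2 change -0.35, SE 0.041, adjusted p = 0.00027). Over the list, 5 markers, Igkc and Ighm among them, were higher and 2 lower after β-CYP (median log2 change 0.40). With selenite, 2 were higher and 2 lower than with β-CYP alone (median -0.20), and 4 higher and 2 lower than in control (median 0.27). Of all genes tested, 7.72% were higher and 8.58% lower in the first comparison. The shares were 11.6% and 12.3% in the second, and 14.4% and 14.5% in the third. The 10 neutrophil markers, led by S100a9, Csf3r and S100a8, summed to 159 to 184, 536 to 630 and 783 to 877 in the order control, β-CYP, selenite plus β-CYP. The 12 Kupffer cell and macrophage markers, led by Cd5l, Clec4f and Csf1r, summed to 15933 to 16576, 16454 to 16855 and 20261 to 20415. The part of these cells in the ER gene changes was not tested, and in bulk tissue fewer cells of a type and less RNA per cell cannot be told apart.

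**Figure D1:**
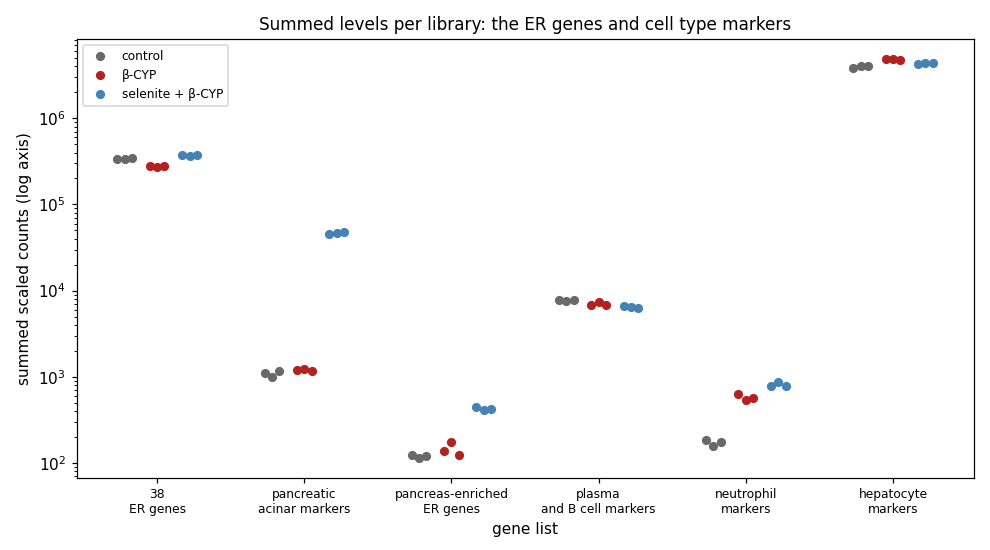
Summed scaled counts per library (log axis) of the 38 ER genes and of 5 gene lists, with each point 1 library, in grey for control, red for β-CYP and blue for selenite plus β-CYP. The pancreatic acinar sum was 983 to 1240 in the 6 control and β-CYP libraries and 45692 to 47395 in the 3 selenite libraries, and the 38 ER genes were lowest in the β-CYP libraries.

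Many of these genes share a promoter element, and its sequence is shown because the genes that hold it are among those described below. RefSeq start sites (mouse build GRCm38.p6) gave 300-base windows, 250 bases before to 50 after the start, for 30 of the 38 genes. The 8 without a window were Hyou1, Manf, Erp29, Sec61a1, Sec11c, Ostc, Derl1 and Atf6. The ERSE, searched on both strands as CCAAT, 9 bases of any kind, then CCACG, was present in 9 of the 30 genes, against 0.119% of all 32851 windows of that length (0.137% of 27025 genes). The 10 matches are printed here in the orientation of the motif, with CCAAT and CCACG in capitals.
Hspa5: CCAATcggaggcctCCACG
Hsp90b1: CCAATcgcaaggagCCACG
Hsp90b1: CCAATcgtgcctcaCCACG
Calr: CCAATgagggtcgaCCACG
Canx: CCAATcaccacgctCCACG
Dnajc3: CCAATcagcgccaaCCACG
Creld2: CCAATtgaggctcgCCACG
Pdia6: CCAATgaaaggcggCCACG
Syvn1: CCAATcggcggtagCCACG
Derl3: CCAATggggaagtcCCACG
The capitals are the same in each because the search asked for them, while the 9 bases between them differed between all matches. The ERSE-II, searched as ATTGG, 1 base, CCACG, was present in Dnajb11 and Herpud1, against 0.0365% of all windows.
Dnajb11: ATTGGcCCACG
Herpud1: ATTGGgCCACG
The UPRE letters TGACGTGG were in none of the member windows and in 0.676% of all windows. A bare CCAAT, which lies inside every ERSE, was in 23 of the 30 genes and in 41.1% of all genes. A match describes letters in a window and is not a measured binding site.

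Whole windows are printed for the master chaperone Hspa5 and for 3 other ERSE holders with large changes, Creld2, Syvn1 and Derl3, chosen after their values were seen. Each is read 5′ to 3′ on the gene's strand, with the ERSE letters in capitals. In Creld2 and Derl3 the element lies on the opposite strand and appears as CGTGG, 9 bases, ATTGG.
Hspa5, chr2:34771840-34772139, strand +: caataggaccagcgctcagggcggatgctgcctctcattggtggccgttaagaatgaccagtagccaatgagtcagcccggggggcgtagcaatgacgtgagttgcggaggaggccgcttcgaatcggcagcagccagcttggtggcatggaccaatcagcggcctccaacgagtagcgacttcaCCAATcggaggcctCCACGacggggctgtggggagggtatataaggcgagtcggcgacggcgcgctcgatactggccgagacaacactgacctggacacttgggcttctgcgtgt
Creld2, chr15:88819396-88819695, strand +: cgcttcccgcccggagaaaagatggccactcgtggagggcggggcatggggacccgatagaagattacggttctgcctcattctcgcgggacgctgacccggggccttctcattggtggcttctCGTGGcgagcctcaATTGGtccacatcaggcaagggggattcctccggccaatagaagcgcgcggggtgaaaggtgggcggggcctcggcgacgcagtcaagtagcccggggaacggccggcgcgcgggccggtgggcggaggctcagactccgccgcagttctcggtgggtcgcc
Syvn1, chr19:6046326-6046625, strand +: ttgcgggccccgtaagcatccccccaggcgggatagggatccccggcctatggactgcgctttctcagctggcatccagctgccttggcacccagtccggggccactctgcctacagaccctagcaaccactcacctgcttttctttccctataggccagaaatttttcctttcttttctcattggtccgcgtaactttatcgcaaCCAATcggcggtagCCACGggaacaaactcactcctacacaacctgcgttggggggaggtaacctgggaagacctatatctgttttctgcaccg
Derl3, chr10:75893148-75893447, strand +: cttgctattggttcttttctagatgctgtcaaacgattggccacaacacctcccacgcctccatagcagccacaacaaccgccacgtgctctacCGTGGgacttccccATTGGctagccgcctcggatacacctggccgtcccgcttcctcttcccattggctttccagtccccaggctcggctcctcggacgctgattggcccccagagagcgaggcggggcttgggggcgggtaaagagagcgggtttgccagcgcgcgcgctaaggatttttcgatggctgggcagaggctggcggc
The leftmost base of the element was 65 bases before the start site in Hspa5, 126 in Creld2, 44 in Syvn1 and 156 in Derl3.

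Across the 38 genes, the ER set was lower after β-CYP than in control and higher when selenite was given with β-CYP. Between β-CYP and control, 25 genes fell, 2 rose and 11 did not pass, where 8.58% of all 20145 genes tested fell and 7.72% rose. The median log2 change of the 38 was -0.29, beside -0.0013 for all genes tested. Groups did not overlap for 29 genes in the lower direction (16.2% of all genes) and for 6 in the higher (15.4% of all genes).

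Between selenite plus β-CYP and β-CYP, 27 of the 38 rose, 3 fell and 8 did not pass, where 11.6% of all genes rose and 12.3% fell. The median change was 0.28, beside 0.017 for all genes. Groups did not overlap for 28 genes in the higher direction (19.3% of all genes) and for 4 in the lower (18.5% of all genes). This comparison shares the β-CYP libraries with the previous one, in which they enter with the opposite sign. A β-CYP library that is low therefore makes both the fall and the rise larger. Another scaling of the libraries moves all selenite changes together: the median of all genes became 0.14 with equal library totals and -0.096 with equal medians, and small selenite changes below should be read against that shift.

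Between selenite plus β-CYP and control, 20 genes were higher, 8 lower and 10 did not pass, where 14.4% of all genes were higher and 14.5% lower. The median was 0.14, beside 0.027 for all genes, and with equal medians these were -0.023 and -0.12. Groups did not overlap for 20 genes in the higher direction (21.4% of all genes) and for 9 in the lower (20.4% of all genes). In summed scaled counts, the 38 genes held 337154 to 341428 in control, 269483 to 279258 after β-CYP and 365291 to 377337 after selenite plus β-CYP.

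**Figure D2:**
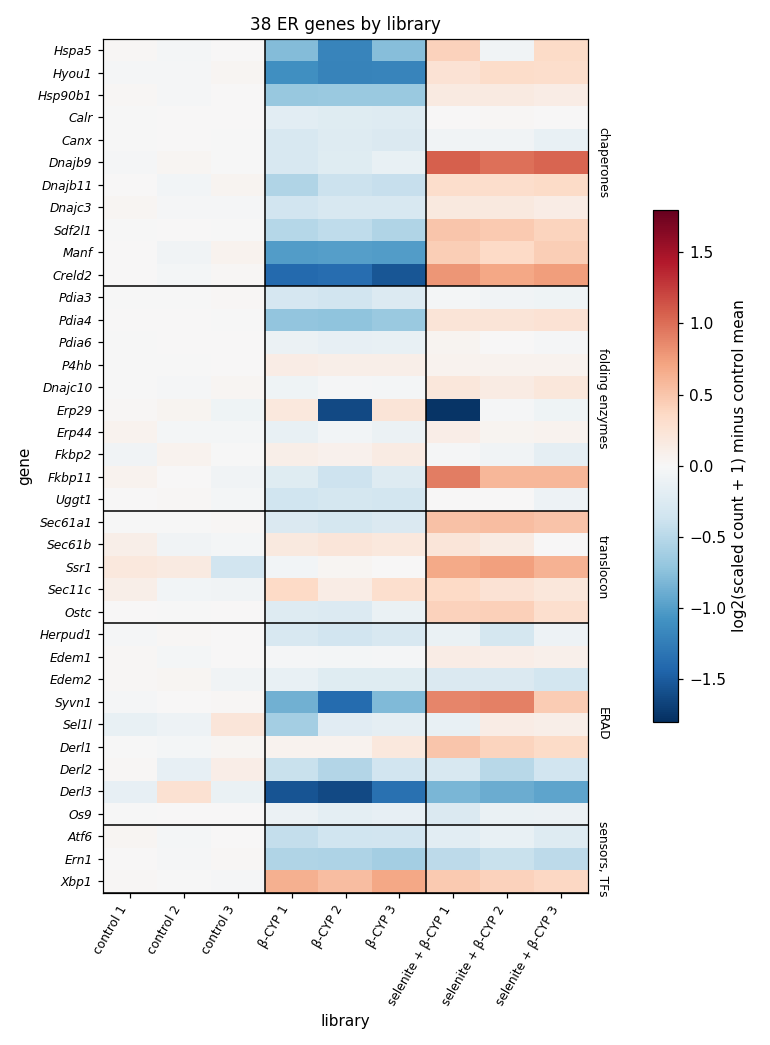
Log2(scaled count + 1) of the 38 genes in each of the 9 libraries minus the mean of the 3 control libraries, with genes in rows by role and libraries in columns. Most rows are blue in the 3 β-CYP libraries, where 25 genes fell, and red or pale in the 3 selenite libraries; the Erp29 row holds 1 dark library in each treated group.

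The chaperones were the role in which all genes moved together. All 11 fell after β-CYP (median log2 change -0.50), all 11 were higher with selenite than with β-CYP alone (median 0.96), and 8 were above control with selenite, with Canx below it and Hspa5 and Calr not passing. The 11 genes summed to 160519 to 163419 scaled counts in control, 108690 to 112641 after β-CYP and 176563 to 188786 after selenite plus β-CYP.

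Hspa5 encodes BiP, the ER Hsp70 that binds unfolded chains and holds the stress sensors inactive. Its scaled counts were 32098, 30846 and 31685 in control, 18275, 13887 and 18518 after β-CYP and 42091, 30197 and 40013 after selenite plus β-CYP. The second library was the lowest of its group in control and in both treated groups, and the β-CYP libraries lay below all others. The gene was 1.88-fold lower after β-CYP (log2 change -0.91, SE 0.13, adjusted p = 0.0011) and 2.21-fold higher with selenite than with β-CYP alone (log2 change 1.15, SE 0.13, adjusted p = 0.00017). Against control the selenite group overlapped and did not pass (log2 change 0.23, SE 0.13, adjusted p = 0.24, 95% interval -0.067 to 0.53), whereas it did with quantile normalization (log2 change 0.59, adjusted p = 0.0049) and without the second selenite library (log2 change 0.38, adjusted p = 0.0478).

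Hyou1 (the Hsp110-type nucleotide exchange factor of BiP) had scaled counts of 7781, 7802 and 8120.4 in control, 3659, 3420.5 and 3459 after β-CYP and 9496, 9963 and 9879 after selenite plus β-CYP. No group overlapped another, and the order was β-CYP, control, selenite. The fall was 2.25-fold (log2 change -1.17, SE 0.035, adjusted p = 1.8e-08) and the difference between the treated groups 2.78-fold (log2 change 1.48, SE 0.035, adjusted p = 3.1e-09). Against control the selenite group was higher by 0.31 on the log2 scale (SE 0.035, adjusted p = 0.00012).

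Creld2, an ER-resident protein that is induced by ER stress, swung most among the chaperones. Its values were 3626, 3530.1 and 3674 in control, 1363, 1398 and 1238 after β-CYP and 6288, 5849 and 6101 after selenite plus β-CYP. The 3 groups lay far apart, in the order β-CYP, control, selenite. It fell 2.71-fold (log2 change -1.44, SE 0.05, adjusted p = 5.1e-08), was 4.56-fold higher with selenite than with β-CYP alone (log2 change 2.19, SE 0.05, adjusted p = 2.5e-09), and stood 1.68-fold above control (log2 change 0.75, SE 0.05, adjusted p = 2.6e-06).

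Manf, a secreted and ER-retained protein that stabilises BiP complexes, had scaled counts of 4215, 4025 and 4389.9 in control, 2092, 2110.5 and 2089 after β-CYP and 5739, 5377 and 5703 after selenite plus β-CYP. The 3 groups again did not overlap. It was 2.01-fold lower after β-CYP (adjusted p = 1.4e-07), 2.67-fold higher between the treated groups (log2 change 1.42, SE 0.04, adjusted p = 7.8e-09) and 1.33-fold above control (adjusted p = 3.9e-05).

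Hsp90b1 (GRP94, the ER Hsp90) had scaled counts of 44426, 42892 and 43805 in control, 27362, 27525 and 27639 after β-CYP and 49040.1, 48808 and 47877 after selenite plus β-CYP, with log2 changes of -0.67 (SE 0.019, adjusted p = 1.4e-08) after β-CYP and 0.82 (adjusted p = 2.8e-09) between the treated groups. Libraries within a group differed far less than groups did. Its excess over control with selenite was small (0.15, adjusted p = 0.00023) and was -0.010 with equal medians.

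The J-domain co-chaperones, which recruit BiP to its clients, separated from each other in how far they rose. Dnajb9 (ERdj4) had scaled counts of 1996, 2089 and 2022 in control, 1671, 1748 and 1862 after β-CYP and 4280.2, 4029 and 4218 after selenite plus β-CYP, so that it was little lower after β-CYP (log2 change -0.21, SE 0.047, adjusted p = 0.013) while the selenite libraries held 2.05 times the control level (log2 change 1.04, SE 0.047, adjusted p = 1.6e-07). Among the 38 genes this was the highest change against control. Dnajb11 (ERdj3) averaged 3962 ± 141, 2908 ± 165 and 4958 ± 52.6 in the order control, β-CYP, selenite plus β-CYP, with log2 changes of -0.45, 0.77 and 0.32 in the 3 comparisons (adjusted p = 0.0001, 1.3e-06 and 0.00046). Dnajc3 (p58IPK, which also restrains PERK) averaged 10842 ± 193, 8785 ± 196 and 12136 ± 186, with changes of -0.30, 0.47 and 0.16 (adjusted p = 3.4e-05, 1e-06 and 0.0012). Its excess over control vanished with equal medians (-0.000034).

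Sdf2l1, a partner of ERdj3 that keeps misfolded clients soluble, had scaled counts of 1506, 1525 and 1503 in control, 1061, 1101 and 1042 after β-CYP and 2147, 2090.1 and 2003 after selenite plus β-CYP. All β-CYP libraries were below all control libraries, and all selenite libraries above them. The changes were -0.50 (adjusted p = 3e-05), 0.96 (adjusted p = 1.9e-07) and 0.46 (adjusted p = 2.7e-05).

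The lectin chaperones calreticulin and calnexin, which hold monoglucosylated glycoproteins, had the smallest differences between the treated groups among the 11 chaperones. Calr averaged 41005 ± 287, 35307 ± 543 and 41189 ± 254 and Canx 12085 ± 40.9, 10126 ± 198 and 11368 ± 296 in the order control, β-CYP, selenite plus β-CYP. After β-CYP, Calr fell by 0.22 (adjusted p = 2.3e-05) and Canx by 0.26 (adjusted p = 0.00011) on the log2 scale. With selenite, Calr was higher than with β-CYP alone by 0.22 (adjusted p = 1.2e-05) and at 0.0065 from control (adjusted p = 0.83, 95% interval -0.033 to 0.046), a value that followed the scaling (0.14 with equal totals, -0.16 with equal medians and 0.20 with quantile normalization, each passing). For Canx these values were 0.17 (adjusted p = 0.0013) and -0.089 (adjusted p = 0.03), the first no longer passing with equal medians and the second turning to 0.048 with equal totals and 0.17 with quantile normalization. The second was also lost without control library 1, 2 or 3 or selenite library 3 (adjusted p = 0.065 to 0.091). The acinar sum of 45692 to 47395 scaled counts stands beside all selenite values of the chaperones.

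**Figure D3:**
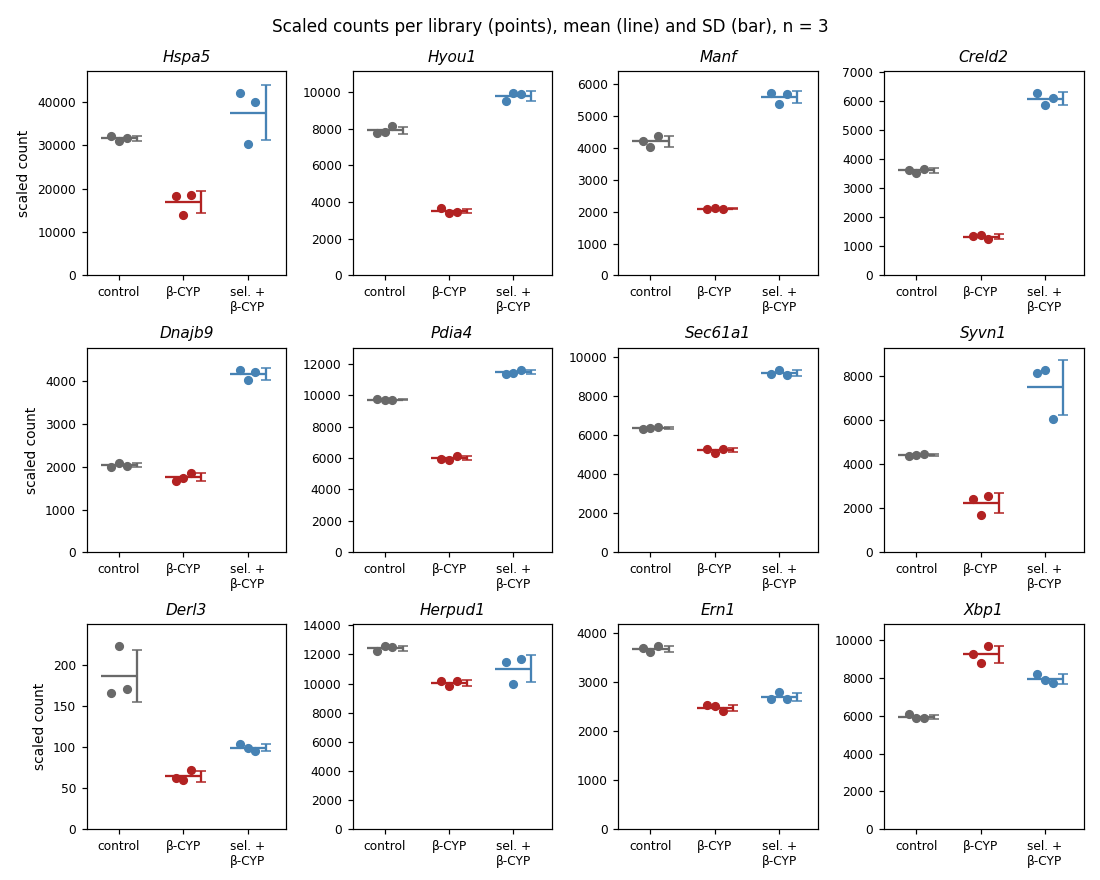
Scaled counts per library for 12 of the 38 genes, each panel with its own linear axis from 0, points for the 3 libraries of a group, lines for means and bars for SD. Hyou1, Manf, Creld2 and Pdia4 show 3 separate groups with β-CYP lowest; Hspa5 and Syvn1 each have 1 low library in both treated groups; Ern1 stays low and Xbp1 stays high in both treated groups.

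The disulfide isomerases and other folding enzymes split. After β-CYP, Pdia3, Pdia4, Pdia6 and Uggt1 fell, P4hb rose and the other 5 did not pass (median log2 change -0.20). With selenite against β-CYP alone, 7 of the 10 were higher and P4hb and Fkbp2 lower (median 0.20). Against control, Pdia4, P4hb, Dnajc10 and Fkbp11 were higher and none was lower (median 0.038). These calls moved with the scaling: with equal medians Dnajc10 did not pass and Pdia3, Pdia6, P4hb, Fkbp2 and Uggt1 passed as lower, and with quantile normalization Pdia3, Pdia6 and Erp44 also passed as higher, while Pdia4 and Fkbp11 were higher in all 20 alternatives.

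Pdia4 (ERp72, an isomerase that works in complexes with BiP) had scaled counts of 9728, 9715 and 9680.4 in control, 5919, 5891 and 6117 after β-CYP and 11359, 11413 and 11637 after selenite plus β-CYP. Libraries of a group lay close together, and the groups did not overlap. It fell 1.62-fold (log2 change -0.70, SE 0.024, adjusted p = 5.1e-08), was 1.92-fold higher with selenite than with β-CYP alone (log2 change 0.94, SE 0.024, adjusted p = 4.3e-09) and 1.18-fold above control (adjusted p = 5e-05).

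Pdia3 (ERp57, the isomerase that partners calreticulin and calnexin) averaged 22045 ± 257, 17895 ± 609 and 21201 ± 278 in the order control, β-CYP, selenite plus β-CYP, and Pdia6 (P5, known to restrain IRE1) averaged 15018 ± 94.4, 13762 ± 194 and 15113 ± 359. Pdia3 fell by 0.30 (adjusted p = 4e-05) and Pdia6 by 0.13 (adjusted p = 0.0051) after β-CYP. With selenite they were higher than with β-CYP alone by 0.25 (adjusted p = 0.00011) and 0.13 (adjusted p = 0.0024). Neither passed against control with the deposited scaling, where Pdia3 was at -0.056 and Pdia6 at 0.0088. With equal medians both passed as lower (-0.22 and -0.15), and with quantile normalization both passed as higher (0.22 and 0.27). The β-CYP fall of Pdia6 did not pass with equal totals, nor did its selenite rise with equal medians.

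P4hb, the founding protein disulfide isomerase PDI and a subunit of prolyl 4-hydroxylase, went the other way. Its scaled counts were 51135, 51379.8 and 51970.3 in control, 56627, 55582 and 55435 after β-CYP and 53826, 53897 and 54061 after selenite plus β-CYP. It was 1.09-fold higher after β-CYP (log2 change 0.12, SE 0.016, adjusted p = 0.00068) and above control with selenite (log2 change 0.067, SE 0.016, adjusted p = 0.011), where equal medians gave a passing difference in the other direction (log2 change -0.10, adjusted p = 0.0043). The rise after β-CYP did not pass with equal totals or quantile normalization. The difference of -0.051 between the treated groups (adjusted p = 0.043) was 0.076 with equal totals and 0.20 with quantile normalization, so its direction depended on the scaling. That call was also lost without control library 1 or 2 or β-CYP library 1, 2 or 3 or selenite library 1, 2 or 3 (adjusted p = 0.052 to 0.14).

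Uggt1, the glucosyltransferase that senses misfolded glycoproteins and returns them to calnexin, averaged 4281 ± 87.3, 3396 ± 55.2 and 4206 ± 158 and followed Pdia3, with a fall of 0.33 (adjusted p = 0.00015) and a rise of 0.31 (adjusted p = 0.00017). Dnajc10 (ERdj5, a disulfide reductase that serves ERAD) averaged 1475 ± 32.2, 1429.8 ± 25.4 and 1676 ± 30.0 and Erp44 (which retains partners at the ER-Golgi interface) 2441 ± 102, 2283 ± 74.1 and 2571 ± 71.0. Neither passed after β-CYP, and both were higher with selenite than with β-CYP alone (Dnajc10 0.23, adjusted p = 0.0019; Erp44 0.17, adjusted p = 0.018). Both calls were lost with equal medians, and that of Erp44 also without β-CYP library 1 or 3 or selenite library 1 (adjusted p = 0.0539 to 0.066).

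Fkbp11, a prolyl isomerase of secretory cells, had scaled counts of 425, 409 and 392 in control, 352, 314 and 347 after β-CYP and 775, 619 and 620.0 after selenite plus β-CYP. Its first selenite library was the highest, and all selenite libraries were above all others. It did not pass after β-CYP (log2 change -0.28, SE 0.10, adjusted p = 0.093), except without selenite library 1 (adjusted p = 0.03). It was 1.98-fold higher with selenite than with β-CYP alone (log2 change 0.98, SE 0.10, adjusted p = 5.8e-05) and 1.63-fold above control (adjusted p = 0.00044). Fkbp2, another prolyl isomerase, averaged 1216 ± 53.7, 1310.2 ± 32.4 and 1145 ± 55.4 and was lower with selenite than with β-CYP alone (log2 change -0.20, SE 0.053, adjusted p = 0.024), a call lost in 6 of the 20 alternatives, among them without β-CYP library 1 or 3 or selenite library 2 or 3 (adjusted p = 0.0513 to 0.079).

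Erp29, a PDI-like protein without redox activity, could not be read from these libraries with any precision. Its scaled counts were 1752, 1787 and 1642 in control, 1961, 562 and 2022 after β-CYP and 507, 1694 and 1629 after selenite plus β-CYP. β-CYP library 2 and selenite library 1 lay far below the other libraries of their groups. No comparison passed, and the 95% interval of the β-CYP change ran from -1.63 to 0.83.

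In sum, genes of the translocon stood highest in the selenite group. After β-CYP, Sec61a1 and Ostc fell and the other 3 did not pass (median log2 change -0.0057). With selenite against β-CYP alone, Sec61a1, Ssr1 and Ostc rose and none fell (median 0.58), and against control those 3 and Sec11c were higher (median 0.38). The 5 genes summed to 11638 to 12645 scaled counts in control, 10944 to 11235 after β-CYP and 16905 to 17842 after selenite plus β-CYP.

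Sec61a1, the channel-forming subunit, had scaled counts of 6282, 6322 and 6407 in control, 5277, 5091 and 5271 after β-CYP and 9124, 9335 and 9042 after selenite plus β-CYP. The 3 groups did not overlap. It fell by 0.28 (SE 0.027, adjusted p = 6.2e-05) and was 1.76-fold higher with selenite than with β-CYP alone (log2 change 0.81, SE 0.027, adjusted p = 2.1e-08) and 1.45-fold above control (adjusted p = 3.3e-07). Sec61b, the small tail-anchored subunit of the same channel, did not pass in any of the 3 comparisons with the deposited scaling (861 ± 55.2, 983 ± 12.1 and 940.3 ± 68.9 in the order control, β-CYP, selenite plus β-CYP), and its change between the treated groups was -0.066 (95% interval -0.22 to 0.086), passing with equal medians (log2 change -0.20, adjusted p = 0.0491). After β-CYP its change of 0.19 passed without control library 1 (adjusted p = 0.04997) alone.

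Ssr1 (the TRAP alpha subunit, which assists chain entry) had scaled counts of 3190.0, 3141 and 2204 in control, 2709, 2870.1 and 2805 after β-CYP and 4521, 4665 and 4327 after selenite plus β-CYP. Control library 3 was the lowest of all 9, and the selenite libraries were above all others. With selenite it was 1.61-fold above β-CYP alone (log2 change 0.69, SE 0.12, adjusted p = 0.0023) and 1.6-fold above control (adjusted p = 0.002). It did not pass after β-CYP, except without control library 3 (log2 change -0.18, adjusted p = 0.028).

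Ostc, an oligosaccharyltransferase subunit that links glycan transfer to the channel, averaged 1708 ± 8.36, 1489 ± 66.7 and 2226 ± 109.9 and rose by 0.58 with selenite over β-CYP alone (adjusted p = 1.8e-05). Its fall after β-CYP (-0.20, adjusted p = 0.021) was lost in 7 of the 20 alternatives, among them without control library 1, 2 or 3 or β-CYP library 1 or 2 (adjusted p = 0.0522 to 0.075). Sec11c, a catalytic subunit of signal peptidase, averaged 498 ± 34.2, 599 ± 45.8 and 600.4 ± 33.4 and passed against control alone (log2 change 0.27, SE 0.081, adjusted p = 0.032), a call lost in 6 alternatives, among them without control library 2 or 3 or selenite library 1 or 2 (adjusted p = 0.072 to 0.1). After β-CYP it passed in 4 alternatives, among them without control library 1 or β-CYP library 2 (adjusted p = 0.033 to 0.041).

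ERAD genes fell after β-CYP and then divided. Herpud1, Edem2, Syvn1, Derl2, Derl3 and Os9 fell, none rose and Edem1, Sel1l and Derl1 did not pass (median log2 change -0.31). With selenite against β-CYP alone, Edem1, Syvn1, Derl1 and Derl3 were higher and 5 did not pass (median 0.14). Against control with selenite, Edem1, Syvn1 and Derl1 were higher, and Herpud1, Edem2, Derl2, Derl3 and Os9 lower (median -0.17). Of these, Syvn1, Derl1 and Derl3 kept their calls in all 20 alternatives. Edem1 turned to -0.045 with equal medians and Os9 to 0.046 with quantile normalization. The calls of Edem2, Derl2 and Os9 were lost with equal totals (adjusted p = 0.084, 0.12 and 0.75).

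Syvn1 encodes HRD1, the ubiquitin ligase at the centre of the retrotranslocation complex. Its scaled counts were 4359, 4431 and 4469.9 in control, 2431, 1695 and 2538 after β-CYP and 8147, 8316 and 6069.6 after selenite plus β-CYP. β-CYP library 2 and selenite library 3 were each below their group partners, yet no group overlapped another. It was 2.02-fold lower after β-CYP (log2 change -1.01, SE 0.16, adjusted p = 0.0016), 3.4-fold higher between the treated groups (log2 change 1.77, SE 0.16, adjusted p = 2.5e-05) and 1.68-fold above control (adjusted p = 0.0053).

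Sel1l, the adaptor that stabilises HRD1, did not pass in any comparison with the deposited scaling. Its scaled counts were 4715, 4872 and 6021 in control, 3391, 4482 and 4615 after β-CYP and 4717, 5698 and 5581 after selenite plus β-CYP. Control library 3 was the highest and β-CYP library 1 the lowest. The changes were -0.33 (SE 0.13, adjusted p = 0.14) and 0.37 (adjusted p = 0.078) and passed in 1 and 3 of the 20 alternatives. The latter included equal totals (log2 change 0.49, adjusted p = 0.028) and quantile normalization (log2 change 0.50, adjusted p = 0.023).

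The derlins, rhomboid-like proteins of the retrotranslocation channel, divided. Derl3, the form known from secretory tissues, had scaled counts of 166, 222 and 170.3 in control, 62.4, 59.2 and 72.1 after β-CYP and 104, 98.7 and 94.9 after selenite plus β-CYP. It fell 2.84-fold after β-CYP (log2 change -1.51, SE 0.15, adjusted p = 0.00011), and with selenite it lay between the other groups, above β-CYP alone (log2 change 0.62, SE 0.15, adjusted p = 0.016) and 1.85-fold below control (adjusted p = 0.0018). The difference between the treated groups did not pass without β-CYP library 2 or selenite library 1 (adjusted p = 0.0525 to 0.053).

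Derl2 averaged 1979 ± 187, 1474 ± 89.9 and 1517 ± 115 in the order control, β-CYP, selenite plus β-CYP, and fell by 0.42 (adjusted p = 0.0062) with no passing difference between the treated groups (0.04, 95% interval -0.14 to 0.22). Derl1 averaged 2704 ± 71.3, 2913 ± 150.3 and 3602 ± 195, did not pass after β-CYP, and was higher with selenite by 0.31 over β-CYP alone (adjusted p = 0.0017) and by 0.41 over control (adjusted p = 0.0002).

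Herpud1 (HERP, which brings HRD1 and derlins together) had scaled counts of 12206, 12553 and 12500.0 in control, 10147, 9823 and 10154 after β-CYP and 11462, 9958 and 11669.6 after selenite plus β-CYP. Selenite library 2 fell among the β-CYP values. The gene fell by 0.31 after β-CYP (SE 0.053, adjusted p = 0.0031). Between the treated groups it did not pass (0.13, adjusted p = 0.11), but passed without that library (log2 change 0.20, adjusted p = 0.0012), with equal totals (log2 change 0.26, adjusted p = 0.016) and with quantile normalization (log2 change 0.40, adjusted p = 0.00017). Against control it was lower by 0.17 on the log2 scale at adjusted p = 0.033, a call turned to 0.085 with quantile normalization and lost in 6 alternatives, among them without control library 1, 2 or 3 or β-CYP library 3 (adjusted p = 0.059 to 0.09).

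The genes that mark or select glycoproteins for degradation by their mannose glycans changed by small amounts. Edem1 averaged 5379.6 ± 108, 5283 ± 36.1 and 5836 ± 76.0, Edem2 1931 ± 73.0, 1691 ± 51.3 and 1580.0 ± 43.0 and Os9 7875 ± 66.6, 7133 ± 158 and 7031 ± 418. Edem1 did not pass after β-CYP and was 0.14 above β-CYP alone with selenite (adjusted p = 0.0034), a call lost with equal medians. Edem2 fell by 0.19 (adjusted p = 0.017) and Os9 by 0.14 (adjusted p = 0.043), calls lost in 5 and 11 of the 20 alternatives. These included Edem2 without control library 1 or 2 or β-CYP library 2 or 3 (adjusted p = 0.0548 to 0.06) and Os9 without control library 1, 2 or 3 or β-CYP library 1, 2 or 3 or selenite library 2 (adjusted p = 0.057 to 0.13). The acinar sum again stands beside the selenite values of the translocon and ERAD genes.

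The stress sensors and the factor XBP1 moved opposite to each other. Atf6, the membrane-bound factor that is cleaved in the Golgi, had scaled counts of 3382, 3241 and 3324 in control, 2457, 2593 and 2611 after β-CYP and 2901, 3036 and 2824 after selenite plus β-CYP and fell by 0.38 after β-CYP (SE 0.04, adjusted p = 0.00015). With selenite it lay between the other groups, 0.19 above β-CYP alone (adjusted p = 0.0065, lost with equal medians) and lower than control (-0.18, adjusted p = 0.0071, lost with equal totals and with quantile normalization).

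Ern1, the kinase and endoribonuclease IRE1 alpha that splices Xbp1 mRNA, had scaled counts of 3686, 3608 and 3728 in control, 2523, 2502 and 2409.7 after β-CYP and 2653, 2789 and 2656 after selenite plus β-CYP. Both treated groups lay below every control library. It fell 1.48-fold after β-CYP (log2 change -0.57, SE 0.036, adjusted p = 3.5e-06) and stayed 1.36-fold below control with selenite (log2 change -0.44, SE 0.036, adjusted p = 9.9e-06). The difference of 0.12 between the treated groups (adjusted p = 0.032) was -0.0082 with equal medians and was lost in 6 alternatives, among them without β-CYP library 2 or 3 or selenite library 2 (adjusted p = 0.062 to 0.088).

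Xbp1 had scaled counts of 6071, 5908 and 5887 in control, 9279, 8791 and 9680.2 after β-CYP and 8224, 7904 and 7736 after selenite plus β-CYP. Every treated library exceeded every control library, and the β-CYP libraries were the highest. It rose 1.55-fold after β-CYP (log2 change 0.63, SE 0.039, adjusted p = 2.9e-06) and was 1.34-fold above control with selenite (log2 change 0.42, SE 0.039, adjusted p = 2.9e-05). The difference between the treated groups (log2 change -0.22, SE 0.039, adjusted p = 0.0027) did not pass with equal totals and was 0.013 with quantile normalization. Gene-level values cannot tell spliced from unspliced Xbp1.

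**Figure D4:**
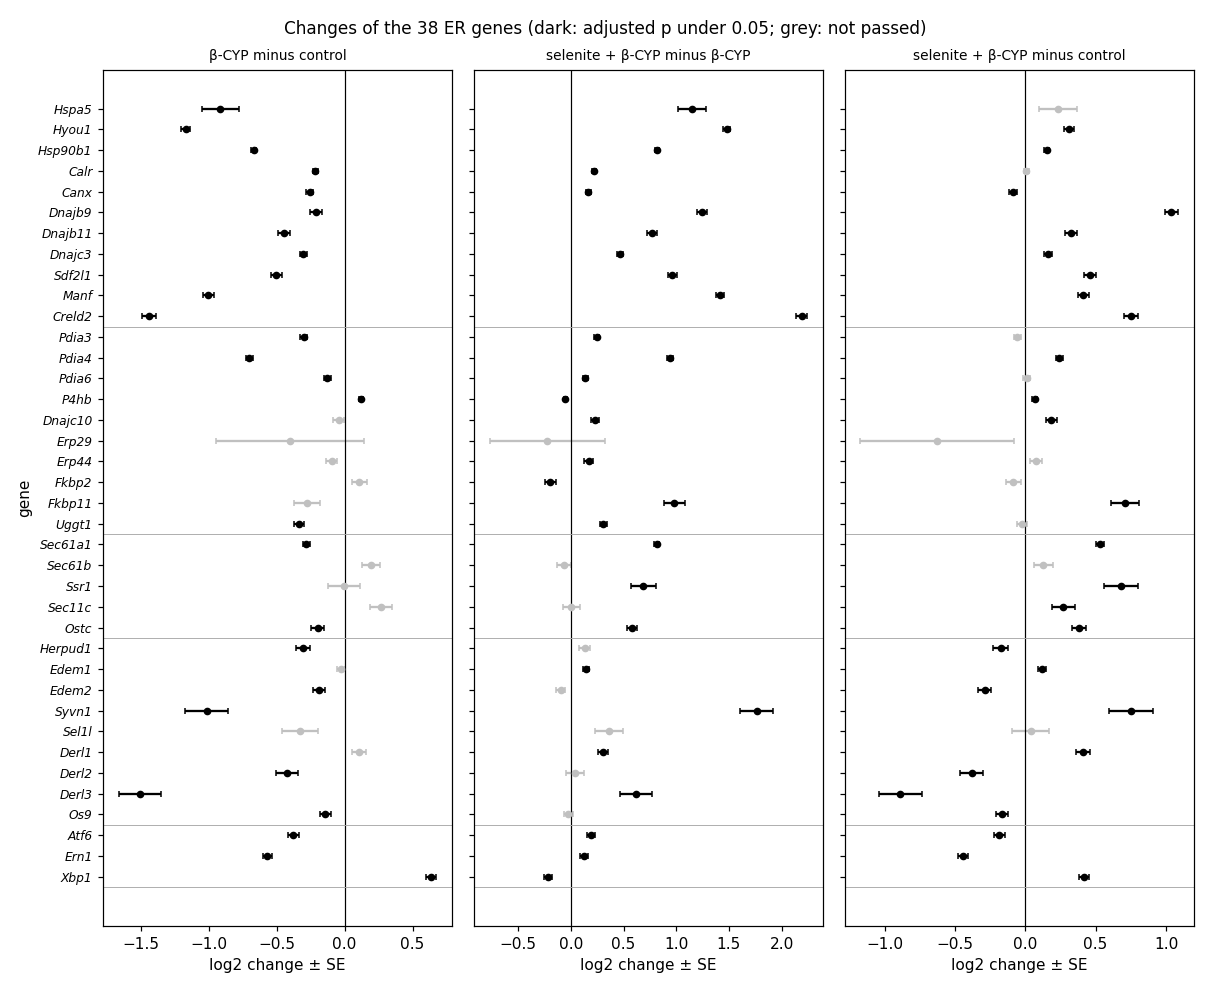
Log2 change ± SE of each of the 38 genes in the 3 comparisons, by role from chaperones at the top to sensors at the bottom, dark where adjusted p is under 0.05 and grey otherwise. All 11 chaperones lie left of 0 for β-CYP against control and right of 0 between the treated groups; Xbp1 does the reverse, and Erp29 has the widest error bars.

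Counted over the 3 comparisons with the deposited scaling, 12 genes were lower after β-CYP, higher with selenite than with β-CYP alone, and higher than control with selenite: Hyou1, Hsp90b1, Dnajb9, Dnajb11, Dnajc3, Sdf2l1, Manf, Creld2, Pdia4, Sec61a1, Ostc and Syvn1. In 5 genes (Hspa5, Calr, Pdia3, Pdia6 and Uggt1) the last comparison did not pass. In 4 (Canx, Derl3, Atf6 and Ern1) the selenite level lay between the other groups, below control. Another 4 (Herpud1, Edem2, Derl2 and Os9) fell and did not pass between the treated groups. Dnajc10, Fkbp11, Ssr1, Edem1 and Derl1 rose with selenite over both other groups without passing after β-CYP. P4hb and Xbp1 were the 2 genes higher after β-CYP, and Erp29, Sec61b and Sel1l did not pass in any. Since the comparisons share libraries, these patterns are descriptions of 3 group means, not 3 independent tests. The share of all genes tested that showed each pattern was not counted, so these counts have no background beside them.

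The 9 genes whose windows hold the ERSE printed above all fell after β-CYP (median log2 change -0.67) and were all higher with selenite than with β-CYP alone (median 0.62). Over all genes tested, 8.58% fell in the first comparison and 11.6% rose in the second. Hspa5, Hsp90b1, Calr, Canx, Dnajc3 and Creld2 are chaperones, a role in which all 11 genes moved this way, with or without a match found. Role and element were not tested apart. Of the 21 genes with a window and no ERSE match, 11 fell, 2 rose and 8 did not pass after β-CYP (median -0.21). These 21 include Dnajb11 and Herpud1, which hold the ERSE-II. Between the treated groups, 12 of those 21 were higher, 3 lower and 6 did not pass (median 0.17). Against control with selenite, 4 ERSE holders were higher, 2 lower and 3 did not pass (median 0.15), beside 10, 5 and 6 of the 21 without a match (median 0.075). Of the 8 genes without a window, 5 fell after β-CYP (median -0.33) and 6 were higher between the treated groups (median 0.44), and 6 were higher and 1 lower than control with selenite (median 0.34). The ranges overlapped, since Calr, Canx and Pdia6 hold the element and changed little, while Pdia4, whose window has no match, fell by 0.70. No match says only that these letters are not in the window searched.

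Genes of the same pathways outside the 38 fell less often after β-CYP, though that difference was not tested. Over all genes tested, 8.58% fell and 7.72% rose, so a list with few falls is not read as falling. After β-CYP, 2 of 14 other ER oxidoreductases fell and 1 rose, 4 of 20 other ER chaperones fell and 1 rose, and 3 of 21 other ERAD genes fell and none rose. Medians of these lists were -0.055, -0.045 and -0.053. The 4 chaperones that fell include Clgn, which met the filter on low values through the control libraries alone. Of 20 table rows for 19 other translocon and signal peptidase genes, 5 fell and none rose (median -0.071; Srp54a has 2 rows). Of 20 ER-Golgi transport genes 5 fell and 1 rose (median -0.11). Of 15 oligosaccharyltransferase and glycan trimming genes 2 fell and 4 rose (median 0.061).

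With selenite against β-CYP alone, the lists for entry and exit of the ER moved most, where 11.6% of all genes were higher and 12.3% lower. In the translocon list 12 rows were higher and 1 lower (median 0.41), and in the ER-Golgi list 14 genes were higher and 1 lower (median 0.38). For glycan transfer and trimming 6 were higher and 1 lower, for oxidoreductases 6 and 3, for other ERAD genes 6 and 4, and for other chaperones 2 and 3, with medians from 0.0064 to 0.065. The 6 oxidoreductases include the pancreatic Pdia2, which met the filter on low values through the selenite libraries alone. Against control, 10 translocon rows and 10 ER-Golgi genes were higher and 2 of each lower, beside 14.4% and 14.5% of all genes.

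Among the oxidoreductases, Ero1lb (the ERO1 oxidase known from pancreas, which recharges PDI) averaged 3459.7 ± 11.9, 1722 ± 109 and 2471 ± 52.1 in the order control, β-CYP, selenite plus β-CYP, a fall of 1.01 (adjusted p = 4.2e-07) and a rise of 0.52 (adjusted p = 2.9e-05). Tmx4 fell by 0.79 (adjusted p = 0.00014) and did not pass between the treated groups. Txndc5 varied between libraries (5123 ± 1307, 3195 ± 895 and 5798 ± 1450.1) and passed between the treated groups alone (log2 change 0.86, SE 0.26, adjusted p = 0.038). Among the chaperones, Hspa13 (an Hsp70-type ATPase of microsomes) fell by 0.52 (adjusted p = 0.00014) and rose by 1.33 (adjusted p = 1.2e-07), the pattern of Hyou1. Sil1, another nucleotide exchange factor of BiP, was lower with selenite than with β-CYP alone (log2 change -0.59, SE 0.047, adjusted p = 1.3e-05), and Creld1, the relative of Creld2, fell by 0.46 after β-CYP (adjusted p = 0.0021) and did not pass between the treated groups. Clgn, the testis relative of calnexin, had 9, 6 and 8 reads in control and 0 in the other 6 libraries. It met the filter on low values through the control libraries alone, so no p-value is given.

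In the entry and glycan lists, the SRP receptor subunit Srprb rose by 1.40 with selenite over β-CYP alone (adjusted p = 0.02), Ssr3 by 0.74 (adjusted p = 5.6e-08), and the SRP subunits Srp19 and Srp72 by 0.67 and 0.65 (adjusted p = 0.0016 and 0.033). Ssr3, a partner of Ssr1 in TRAP, also fell after β-CYP (-0.29, adjusted p = 7.3e-05). Glucosidase I (Mogs) rose by 0.65, the transferase subunits Magt1, Stt3a and Rpn1 by 0.46, 0.49 and 0.33 (adjusted p = 1.2e-05, 8.8e-05, 2.2e-05 and 2.6e-05). Of these 4, Magt1 and Stt3a had fallen after β-CYP (-0.50 and -0.29, adjusted p = 7.5e-05 and 0.0012).

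In the ERAD list, Edem3, the selenoprotein Selenok, the conjugating enzyme Ube2j2 and the p97 adaptor Ubxn4 rose by 0.61, 0.52, 0.52 and 0.51 between the treated groups (adjusted p = 6.8e-05, 0.00014, 0.00061 and 2.1e-06). Selenok, which carries selenocysteine, averaged 1214 ± 55.3, 1170.0 ± 16.9 and 1680.1 ± 119 scaled counts in the order control, β-CYP, selenite plus β-CYP, and did not pass after β-CYP. In the ER-Golgi list, the COPII coat genes Sec23b and Sec24d and the GTPase gene Sar1a rose by 1.10, 0.63 and 1.04 (adjusted p = 2.4e-06, 5.8e-06 and 0.0059). Kdelr3, a receptor that returns ER proteins from the Golgi, was near the limit of detection (9.94 ± 6.52, 3.81 ± 4.2 and 23.7 ± 6.97 scaled counts).

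The remaining branches of the unfolded protein response gave mixed counts after β-CYP, where 7.72% of all genes rose and 8.58% fell. Of 13 other sensors and regulators, 3 rose and 1 fell (median 0.035), and of 12 genes of the PERK arm and integrated stress response 3 rose and 2 fell (median 0.013). With selenite against β-CYP alone 6 rose and 1 fell in the first list (median 0.28), and 5 rose and 2 fell in the second (median -0.034). The 6 include Bhlha15, described above with the genes known from pancreas. Over all genes tested, 11.6% rose and 12.3% fell in that comparison. Wfs1 (wolframin, an ER membrane protein) fell by 0.49 (adjusted p = 0.0013) and rose by 1.44 (adjusted p = 4.8e-07). Creb3l2, a membrane-bound factor related to ATF6, rose by 0.48 after β-CYP (adjusted p = 3.5e-05) and by a further 0.65 with selenite (adjusted p = 2.6e-06). Its relative Creb3l1 passed against control alone (1.48, adjusted p = 0.021).

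In the PERK arm, Chac1, a glutathione-degrading enzyme induced by ATF4, had scaled counts of 122, 85.6 and 146 in control, 296, 303 and 289 after β-CYP and 127, 134 and 126 after selenite plus β-CYP. It rose by 1.35 after β-CYP (adjusted p = 0.00049) and fell by 1.20 with selenite against β-CYP alone (adjusted p = 0.00075), opposite to the chaperones in both. Atf3 rose in both steps (1.25 and 1.43, adjusted p = 0.016 and 0.0055), and Nupr1, a stress-induced nuclear protein that is abundant in injured pancreas, fell by 1.09 and then rose by 2.34 (adjusted p = 0.0082 and 4.1e-05). Cebpb was lower with selenite than with β-CYP alone (log2 change -0.94, SE 0.051, adjusted p = 8.1e-07).

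**Figure D5:**
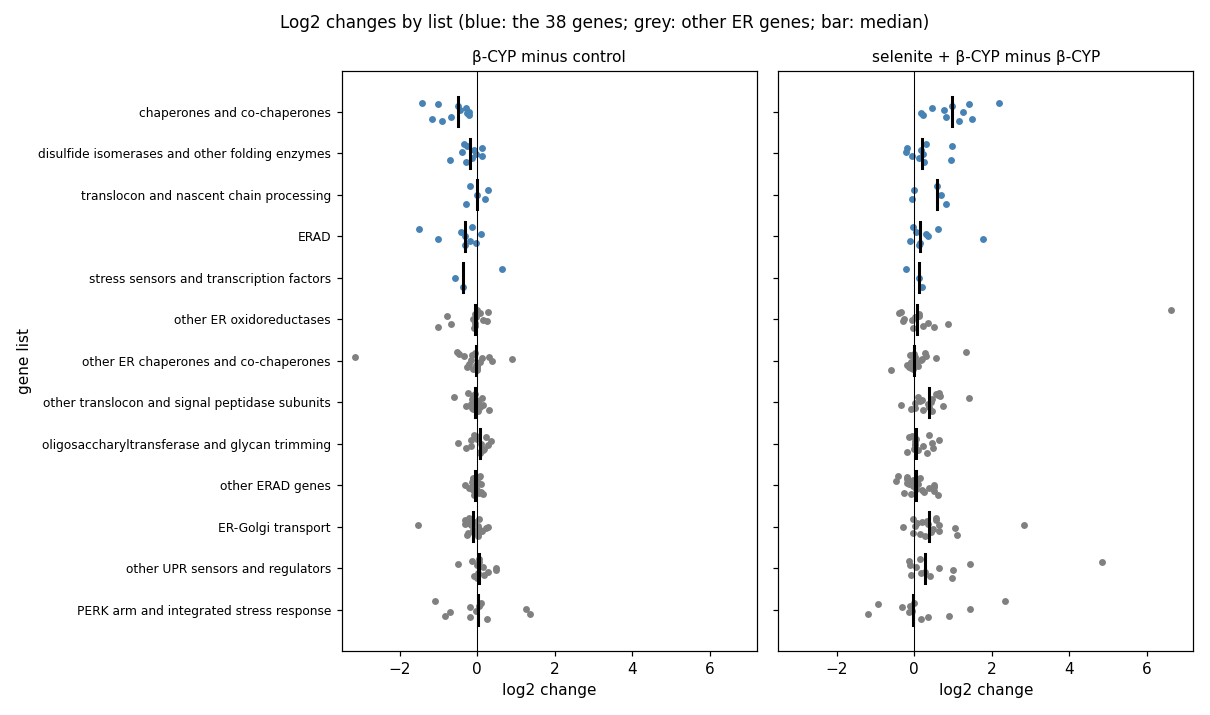
Log2 changes of single genes (points) and list medians (bars) for the 5 roles of the 38 genes (blue) and 8 lists of other ER and stress genes (grey), for β-CYP against control (left) and selenite plus β-CYP against β-CYP (right). The chaperone role has the lowest median on the left (-0.50) and the highest on the right (0.96); the points far right are Pdia2 and Bhlha15, and the point far left is Clgn.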

How the data were processed

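The deposited table gave log2 values for 25781 genes in 9 libraries, made by the authors; the submitters' processing notes list HISAT and Cufflinks beside build mm9, with no version or counting rule stated. Per the labels' protocols libraries followed a BGISEQ500 protocol, whereas the design text gives Illumina HiSeq as platform. Every deposited value equalled log2(whole reads / library factor + 1) within 0.02 reads (100.0% of values), the factor being the median of ratios. The sources used here do not say whether strand was used or how overlapping genes were counted. Coordinates printed are RefSeq's on GRCm38.p6, a build other than the authors'.

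Group means were fitted over all 9 libraries with limma 3.58.1 (R 4.3.3; moderated, with an intensity trend) on the deposited log2 values of the 20145 genes that averaged at least 1 scaled count; p-values are two-sided, adjusted by Benjamini-Hochberg over those genes, with a threshold of 0.05. A list was described by counts and medians. Where a gene had no read in any library of a group, the text gave its reads or scaled counts without a size of change or p-value. List medians do not depend on the size of change of such a gene. The fit, tested on simulated data, recovered 169 of 200 changed genes with 8 false calls. The simulation gave all genes the same relative spread beyond counting noise and larger changes than many called here. It therefore does not cover genes that varied more between libraries or small changes. Alternatives covered scaling, pseudocount, filter, limma voom on the recovered reads, a replicate block, the libraries fitted and leaving out each library.

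The members, lists and alternatives were chosen with earlier results of these data known. Named genes were all 38 members and, per other pathway list, the 4 passing genes with the largest changes. Also named were 3 pancreas-enriched genes (Pdia2, Erp27 and Bhlha15), and marker lists by their sums and 3 leading genes.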

Additional observations from a re-analysis of the deposited data

How the results depend on the processing

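Over 20 alternatives, 2119 of 2280 gene values of the 38 genes kept direction and side of the threshold, 83 lost and 27 gained a call, and 35 values that passed under neither setting changed sign. After β-CYP, 21 of the 25 falls (all but Pdia6, Ostc, Edem2 and Os9) and the rise of Xbp1 held throughout. Between the treated groups 19 of the 27 rises held, and against control with selenite 14 of 20; of the genes lower there, Derl3 and Ern1 held. Precision is limited by 3 libraries a group.

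Scaling moved several counts. Genes higher after β-CYP were 1 in place of 2 with equal totals and 1 with quantile normalization, and the median change of the 38 genes was -0.32 with equal medians. Between the treated groups, genes lower were 0 in place of 3 with equal totals, 6 with equal medians and 1 with quantile normalization, and the median was 0.40, 0.14 and 0.46. Against control with selenite, genes lower were 2, 14 and 4 in place of 8, and the median was 0.28, -0.023 and 0.26. Over all genes tested, calls between the treated groups were 2337 higher and 2468 lower, but 3238 and 1335 with equal totals and 1531 and 3849 with equal medians. Leaving out 1 library gave 2 to 4 genes higher after β-CYP (4 without control library 1), 1 to 3 genes lower between the treated groups (1 without β-CYP library 1 or 3 or selenite library 2 or 3), and a median of 0.12 to 0.17 against control with selenite. Libraries with the same replicate number did not deviate together (correlations -0.011 to 0.032), and the replicate block left 1 gene lower between the treated groups in place of 3 and changed no other count of the 38 genes by over 1.5 times. With the block, Sel1l passed after β-CYP (adjusted p = 0.022) and between the treated groups (adjusted p = 0.0095) and Sec11c after β-CYP (adjusted p = 0.039), while Ostc and Os9 after β-CYP and P4hb, Fkbp2 and Ern1 between the treated groups did not.

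Small changes turned direction with the scaling. Equal totals and equal medians multiply a library by 1 factor and so move nearly all genes alike (the median of all genes against control with selenite went from 0.027 to -0.12 with equal medians); for quantile normalization the cause was not tested. Between the treated groups the genes were P4hb (0.076 with equal totals, 0.20 with quantile normalization), Os9 (0.17) and Xbp1 (0.013) with quantile normalization, and Ern1 (-0.0082) with equal medians. Against control with selenite they were, with equal medians, Hsp90b1 (-0.010), Calr (-0.16), Dnajc3 (-0.000034), Pdia6 (-0.15), P4hb (-0.096) and Edem1 (-0.045). They were also Canx (0.048 with equal totals), and with quantile normalization Canx (0.17), Pdia3 (0.22), Herpud1 (0.085) and Os9 (0.046).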
